A study of Homo sapiens with 6 samples.

Results

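The melanocyte lineage and pigment genes described here are 10 genes chosen by name, namely MITF, SOX10, PAX3, PMEL, MLANA, TYR, TYRP1, DCT, GPR143 and SLC45A2, of 20176 protein-coding genes in the GRCh37 annotation. They were followed in RNA bound by CELF1 (also called CUGBP1, an RNA-binding protein that recognises GU-rich sequences) in SK-Mel-103 and UACC-62, both established human melanoma cell lines. The labels give no treatment or genotype for either line. RNA was recovered from formaldehyde-fixed lysates with an anti-CUGBP1 antibody (IP) or taken from the lysate (input). SK-Mel-103 had 1 IP with its input (replicate 1), and UACC-62 had 2 (replicates 1 and 3). No IP with another antibody was analysed here, and nothing in the labels says whether replicates came from separate cultures. With 1 SK-Mel-103 library, the p-values rest only on the spread between the 2 UACC-62 samples and on spread shared across genes.

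The deposited lists give 20-bp stretches of the genome (bins) that passed the authors' peak test, each with its IP reads and a covariate from which input reads were recovered. A bin was assigned to a gene when its centre lay in an exon of that gene on the transcript strand. Of the 10 genes, 7 had at least 1 listed bin, 708 distinct bins in all, with 113 in SK-Mel-103 and 527 and 577 in UACC-62 replicates 1 and 3. Across the genome 13475 protein-coding genes had a listed bin. The lists held 10958459, 11333805 and 14436573 IP reads in the same order of samples. Every listed bin had at least 4 IP reads, so a gene without a listed bin was not shown to be at 0, and no fold change is given against such a gene.

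Pigment cells arise from the neural crest, where SOX10 and PAX3, both transcription factors, switch on MITF, the basic helix-loop-helix factor that governs the melanocyte lineage. MITF in turn drives genes that build pigment: TYR, TYRP1 and DCT encode the enzymes of melanin synthesis, PMEL forms the fibrils on which melanin is laid down, MLANA takes part in melanosome maturation, and GPR143 and SLC45A2 encode a melanosomal receptor and a transporter. Melanoma cell lines differ widely in this programme, and lines with little MITF often carry high AXL.

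The bins with the most IP reads in UACC-62 are shown for the genes on which the results turn. Each line gives the bin with 5 nt on either side, read 5′ to 3′ on the transcript strand from the GRCh37 genome, with capitals for any TGTT, GTGT or TGTTTG, short GU-rich motifs written as DNA.
PAX3, chr2:223127356-223127385, minus strand: tctagtcctcTGTTTGtccacataaatttg
PAX3, chr2:223127656-223127685, minus strand: gGTGTTaggtttagggcaaggtttattaat
MITF, chr3:70015216-70015245, plus strand: ttttttttattttatttttgcttttgataa
MLANA, chr9:5909956-5909985, plus strand: ctattgccatcctgagtggaaaaccagtat
MLANA, chr9:5908716-5908745, plus strand: cgagacacctgagacatgctgaaattattt
SOX10, chr22:38368856-38368885, minus strand: aggccccctgatccaattctgtgccaataa
TYR, chr11:89028756-89028785, plus strand: tgtctaaggaaaggatgctatttggtaatg
The PAX3 bins lie in an exon that is annotated without a coding region, and the others lie in 3′ UTRs. Both PAX3 stretches held at least 1 of the motifs and the other 5 held none. Of the genes not printed, the top bin of DCT held GTGT and that of SLC45A2 held no motif. Over all 708 bins of the 10 genes, read with the same 5 nt on either side, TGTT was present in 12.9%, against 15.9% of the 898143 listed exonic bins of all genes. GTGT was present in 8.62% against 10.1%, and TGTTTG in 3 of the 708 bins (0.424%) against 1.41%. Over the 140 PAX3 bins alone, TGTT was present in 17.9%, GTGT in 11.4% and TGTTTG in 0.714%. The contrast between the printed stretches thus holds for those bins only. GU-rich elements, taken as 11-nt stretches within 2 mismatches of either consensus element of the study's methods, occurred in the 3′ UTR of 7 of the 10 genes and in 57.8% of 20058 genes with an annotated 3′ UTR. PAX3 had 14 such positions in its 3′ UTR, overlapping ones counted separately, DCT had 3, MITF 2, and MLANA, TYR, TYRP1 and SLC45A2 1 each.

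The first comparison asked whether CELF1-bound RNA of these genes differed between the lines. IP reads of 6 of the 7 genes with a listed bin were lower in SK-Mel-103 than in UACC-62 at an adjusted p under 0.05 (edgeR's quasi-likelihood test, Benjamini-Hochberg over 11726 genes), and SOX10 did not pass. None was higher. Over all genes tested 10.9% were lower in SK-Mel-103 and 6.39% were higher, so that 36.9% of the genes called were higher with TMM scaling, against 54.0% when libraries were divided by their list totals. The direction of the 6 genes was the same under both scalings. TYR, DCT and SLC45A2 entered this test through UACC-62 alone, so their direction was fixed by the filter. The SK-Mel-103 library was assumed to vary like those of UACC-62, and fewer cells or less RNA per cell cannot be told apart in these bulk samples.

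**Figure D1:**
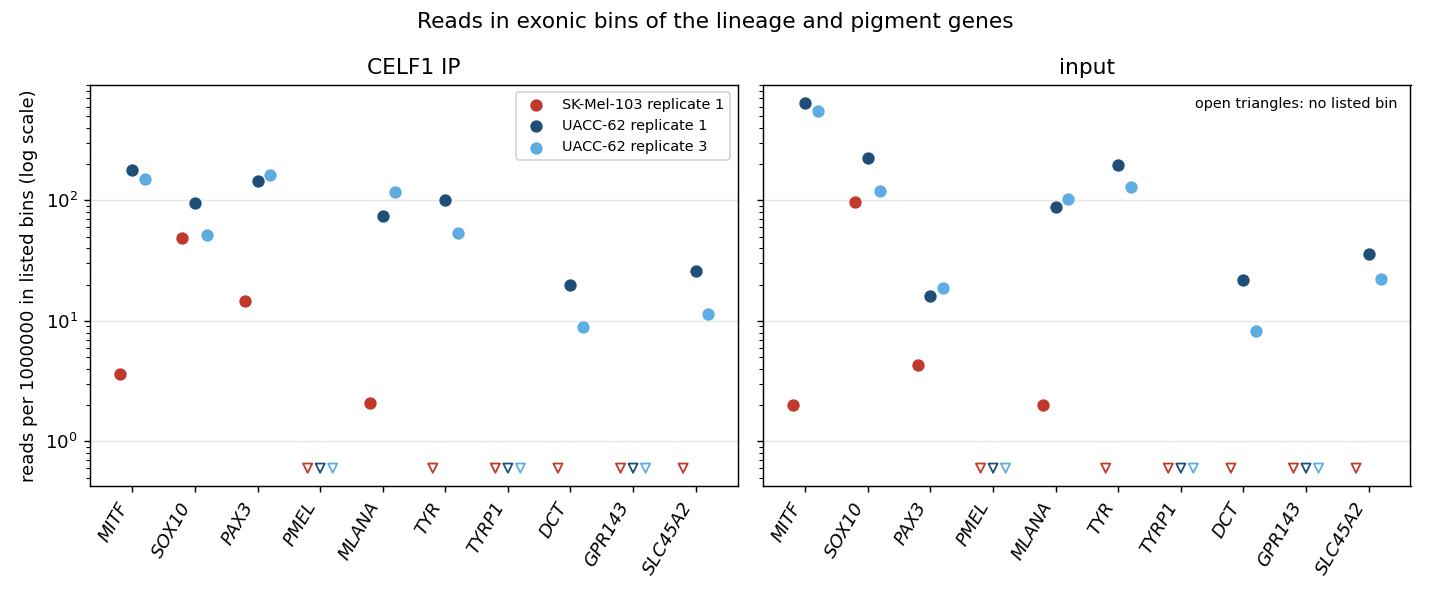
Reads per 1000000 in listed exonic bins (vertical axis, log scale) of the 10 genes in the CELF1 IP (left) and the input (right), 1 point per sample, with open triangles where a sample had no listed bin. MITF, PAX3, MLANA and SOX10 had listed bins in every sample. The SOX10 point of SK-Mel-103 in the IP is close to that of UACC-62 replicate 3 (48.8 RPM against 51.6 RPM). TYR, DCT and SLC45A2 had no listed bin in SK-Mel-103, and PMEL, TYRP1 and GPR143 had none in any sample.

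Among the transcription factors, MITF had the widest gap. MITF had 48 IP reads in SK-Mel-103 and 1610 and 2243 in UACC-62, in 10, 142 and 155 bins. Divided by the scaled library size these were 3.60 reads per 1000000 listed reads (RPM) in SK-Mel-103 and 164 ± 18.2 RPM (SD, n = 2) in UACC-62. The log2 difference in IP reads (SK-Mel-103 minus UACC-62) was -5.51 (SE 0.576, edgeR adjusted p = 2.74e-05). Input went the same way, with 18 reads in SK-Mel-103 against 6036 and 5000 in UACC-62, or 2.0 RPM against 597 ± 61.0 RPM (SD, n = 2). Its log2 difference was -8.14 (SE 0.390, limma adjusted p = 0.0157). In the 9 bins listed in all 3 samples the differences were smaller, at -2.13 in IP (edgeR adjusted p = 7.64e-06) and -4.58 in input (limma adjusted p = 0.00705). In SK-Mel-103 these bins held 43 IP reads, at most 6 per bin, and each needed 4 to be listed. Choosing them thus capped how large the IP difference could be.

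PAX3 had 195 IP reads in SK-Mel-103, 1314 in UACC-62 replicate 1 and 2380 in replicate 3. This was 14.6 RPM in SK-Mel-103 against 153 ± 11.4 RPM (SD, n = 2) in UACC-62. The log2 difference in IP reads was -3.38 (SE 0.503, edgeR adjusted p = 0.000428). Most of these reads lay in 1 exon without a coding region, described further on, and with 3′ UTR bins only the difference was 0.027 (edgeR adjusted p = 0.993). Input reads of PAX3 numbered 39, 151 and 170, and the log2 difference in input of -1.97 did not pass (SE 0.394, limma adjusted p = 0.0771).

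SOX10 was listed at similar counts in both lines. It had 651 IP reads in SK-Mel-103 and 866 and 764 in UACC-62, which is 48.8, 95.3 and 51.6 RPM. Input reads were 864, 2115 and 1080. The log2 differences were -0.59 in IP (SE 0.501, edgeR adjusted p = 0.487) and -0.77 in input (SE 0.586, limma adjusted p = 0.425), and neither passed. With edgeR on the recovered input reads the input difference did pass (-0.84, edgeR adjusted p = 0.0281). Of the 75 SOX10 bins listed in SK-Mel-103, 53 were listed in both UACC-62 replicates too.

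Among the pigment genes, MLANA was the only one listed in both lines. It had 28 IP reads in 2 bins in SK-Mel-103, and 668 in 65 bins and 1721 in 92 bins in UACC-62. Neither SK-Mel-103 bin was among the 61 bins that both UACC-62 replicates shared. The log2 difference was -5.49 in IP (SE 0.651, edgeR adjusted p = 7.44e-05) and -5.49 in input (SE 0.393, limma adjusted p = 0.0178), from 18 input reads in SK-Mel-103 and 826 and 926 in UACC-62. The opposite strand of MLANA exons held 23 IP reads in SK-Mel-103, nearly as many as the transcript strand, and 13 and 10 in UACC-62. Where the SK-Mel-103 reads came from was not tested.

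TYR, the rate-limiting enzyme of melanin synthesis, had no listed bin in SK-Mel-103. In UACC-62 it had 909 and 798 IP reads and 1848 and 1172 input reads, and the test of IP reads gave an edgeR adjusted p of 1.38e-05. DCT, the dopachrome tautomerase, had 182 and 131 IP reads in UACC-62 and none listed in SK-Mel-103 (edgeR adjusted p = 0.000955). SLC45A2 likewise had 237 and 168 IP reads in UACC-62 alone (edgeR adjusted p = 0.000489). Since TYR, DCT and SLC45A2 entered the test through UACC-62 alone, their direction was fixed by the filter. Having no listed bin in SK-Mel-103 was shared by 7.44% of the 11148 genes with a listed bin in both UACC-62 replicates. TYRL, a near-identical copy of the last TYR exons elsewhere on chromosome 11, held no listed bin, and whether reads moved between the copies was not tested.

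PMEL, TYRP1 and GPR143 had no listed bin on the transcript strand in any sample, in UACC-62 either. This held for 33.2% of protein-coding genes. These 3 genes therefore have no value here, and their RNA level in either line is not known from these lists.

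In input, 5 of the 7 genes were lower in SK-Mel-103 at an adjusted p under 0.05 (limma), namely MITF, MLANA, TYR, DCT and SLC45A2, and none was higher. As in the IP, TYR, DCT and SLC45A2 entered through UACC-62 alone, so the direction of these 3 was fixed by the filter. Of 10609 genes tested in input, 8.22% were lower and 4.57% were higher in SK-Mel-103. The limma adjusted p for TYR, DCT and SLC45A2 in input were 0.0157, 0.033 and 0.0168, and DCT did not pass without the filter on low sums (0.0591). Input was known only at bins that passed the IP test.

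Reads in listed bins of UACC-62 were also set against length, as RPM per kb of annotated exon. Stretches without a listed bin added length but no reads, so the order is not one of RNA levels. Most PAX3 reads lay in a single exon, described further on. In input MITF stood highest at 80.4 ± 8.22 (SD, n = 2), followed by TYR at 62.8 ± 18.0, SOX10 at 35.6 ± 15.3 and MLANA at 31.7 ± 3.53. SLC45A2 reached 8.98 ± 2.98, PAX3 2.19 ± 0.251 and DCT 2.01 ± 1.28. Neighbours in this order overlapped within 1 SD of each other, other than MLANA with SLC45A2 and SLC45A2 with PAX3. In the IP the order changed to MLANA at 31.7 ± 10.1, TYR at 29.7 ± 12.6, MITF at 22.2 ± 2.45, PAX3 at 19.2 ± 1.44 and SOX10 at 15.2 ± 6.40. SLC45A2 at 5.81 ± 3.23 and DCT at 1.92 ± 1.05 came last. All neighbours in this order overlapped within 1 SD, whereas MLANA and PAX3 did not. PAX3 moved from beside the lowest in input to the level of SOX10 in the IP.

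IP over input relates the bound RNA to the RNA of the same lysate. It was taken as the log2 ratio of IP to input, each per library size, with 1 read added to each. In UACC-62 PAX3 stood at 3.17 and 3.09, above 99.1% and 99.4% of genes with at least 10 IP and 10 input reads. MITF stood at -1.85 and -1.87, above only 7.72% and 6.57% of those genes. SOX10 lay at -1.23 and -1.21 and TYR at -0.97 and -1.27. SLC45A2 lay at -0.45 and -0.96, DCT at -0.13 and 0.08, and MLANA at -0.25 and 0.18. The median of all genes was -0.34 and -0.36, below DCT and MLANA and above the other genes apart from PAX3.

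**Figure D2:**
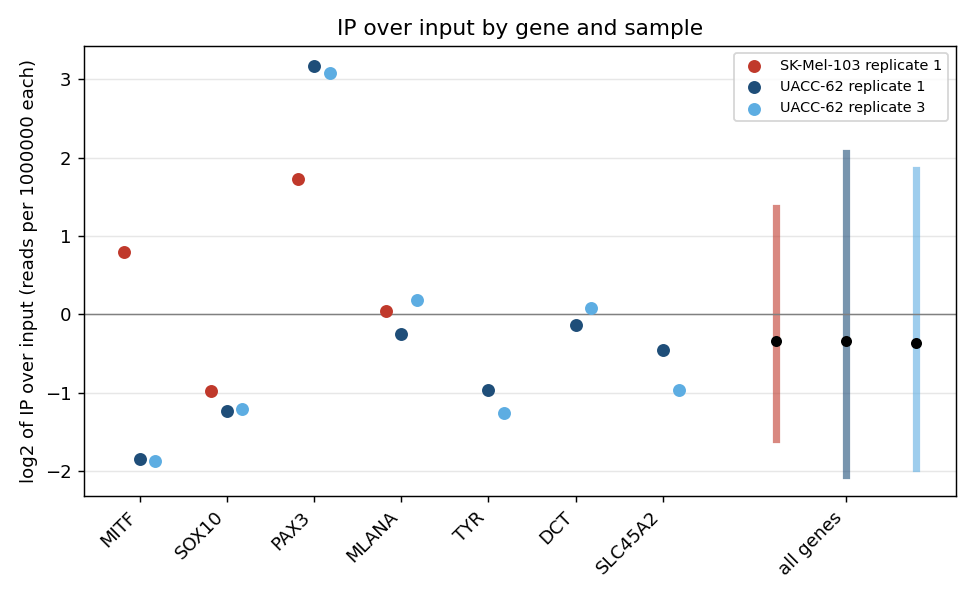
Log2 of IP over input (vertical axis) for the 7 genes with listed bins, 1 point per sample. At the right, bars run from the 5th to the 95th percentile of genes with at least 10 IP and 10 input reads in that sample, with the median as a black point. PAX3 lies above the bar in all 3 samples, and MITF lies near the foot of the bar in UACC-62 and above the median in SK-Mel-103.

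Between the lines, 4 of the 10 genes had enough reads for a test of IP over input. MITF was higher in SK-Mel-103 (0.80) than in UACC-62 (-1.86 ± 0.0123, SD, n = 2), a log2 difference of 2.66 (SE 0.298, limma adjusted p = 0.00216). PAX3 was lower in SK-Mel-103 (1.72) than in UACC-62 (3.13 ± 0.0570, SD, n = 2), a log2 difference of -1.40 (SE 0.299, limma adjusted p = 0.037), which did not pass with division by list totals (-1.11, adjusted p = 0.095) and was 0.65 with 3′ UTR bins only (adjusted p = 0.304). SOX10 (difference 0.24, SE 0.298, limma adjusted p = 0.685) and MLANA (difference 0.08, SE 0.317, limma adjusted p = 0.917) did not pass. Of 8177 genes tested, 0.954% were higher and 1.04% were lower in SK-Mel-103, and the higher share of the calls was 47.9%, or 85.3% with list totals.

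The MITF ratio in SK-Mel-103 rested on 48 IP and 18 input reads in bins that each needed 4 IP reads to be listed. Among the 663 genes with 40 to 60 IP reads in SK-Mel-103 the median ratio was 0.12 (quartiles -0.39 and 0.57), and MITF at 0.80 lay above the upper quartile. Among the 126 genes tested whose input was at least 16-fold lower in SK-Mel-103, the ratio was higher there in 117 (92.9%), with a median difference of 0.94. Among the 47 genes whose input was at least 16-fold higher in SK-Mel-103, it was higher there in 0, with a median difference of -1.09. Among the 4652 genes with input within 2-fold, the median difference was 0.03. These sets were chosen by the same input that is the denominator of the ratio, so part of these shares follows from the choice itself. The part of bin listing in the MITF difference was not tested. In the 9 MITF bins listed in all 3 samples the ratio was 0.72 in SK-Mel-103 and -1.77 and -1.79 in UACC-62.

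Nearly all MITF reads lay in the 3′ UTR. It held all 48 IP reads in SK-Mel-103 and 96.8% and 96.4% of IP reads in UACC-62. The last of the 10 exons of the canonical transcript, 3486 nt long (chr3:70013998-70017483), had 1454 and 2035 IP reads in UACC-62 against 5495 and 4534 input reads. Exon 1 of that transcript had 5 IP reads in UACC-62 replicate 1 and no listed bin in the other samples, and exon 3, the first one with more than 10 IP reads in both UACC-62 replicates, had 15 and 58. The ratio was low in both the 3′ UTR (-1.86 and -1.87) and the coding region (-2.05 and -1.92). The strongest MITF bin, chr3:70015221-70015240, the MITF stretch printed above, had 62 and 74 IP reads in UACC-62 over 212 and 199 input reads.

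PAX3 reads were placed quite differently. In UACC-62, 96.2% and 93.4% of PAX3 IP reads lay in a single 2582-nt exon, chr2:223127263-223129844, the last exon of a transcript annotated without a coding region. This exon lies inside intron 4 of the canonical PAX3 transcript. It had 142 IP reads in SK-Mel-103 and 1264 and 2223 in UACC-62, over 20, 116 and 125 input reads. Its ratio was 2.20, 3.49 and 3.43. The remaining PAX3 exons had 53, 50 and 157 IP reads, and a ratio of 0.86 in SK-Mel-103 and 0.81 ± 0.361 (SD, n = 2) in UACC-62. The remaining exons stood at 3.98 RPM in SK-Mel-103 and 5.50 and 10.6 RPM in UACC-62, and the exon in intron 4 at 10.7 RPM against 139 and 150 RPM.

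The surrounding intron was read in the same way. Outside the exon, intron 4 had 86, 136 and 283 IP reads in listed bins, or 1.45, 2.29 and 4.77 reads per kb, while the exon had 55.0, 490 and 861 reads per kb. The ratio of these intron bins was 1.29, 3.15 and 3.27, close to that of the exon in UACC-62, but it rested on only 23, 15 and 17 input reads. In the exon, 27 of 81 and 45 of 100 listed bins had no input reads in UACC-62 replicates 1 and 3. Each bin needed 4 IP reads to be listed, and the part of bin listing in these ratios was not tested. In UACC-62 the exon lay far above the intron in reads per kb, and within 0.34 log2 units of it in IP over input. Reads of the shorter transcript and of unspliced PAX3 RNA cannot be told apart by bins.

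**Figure D3:**
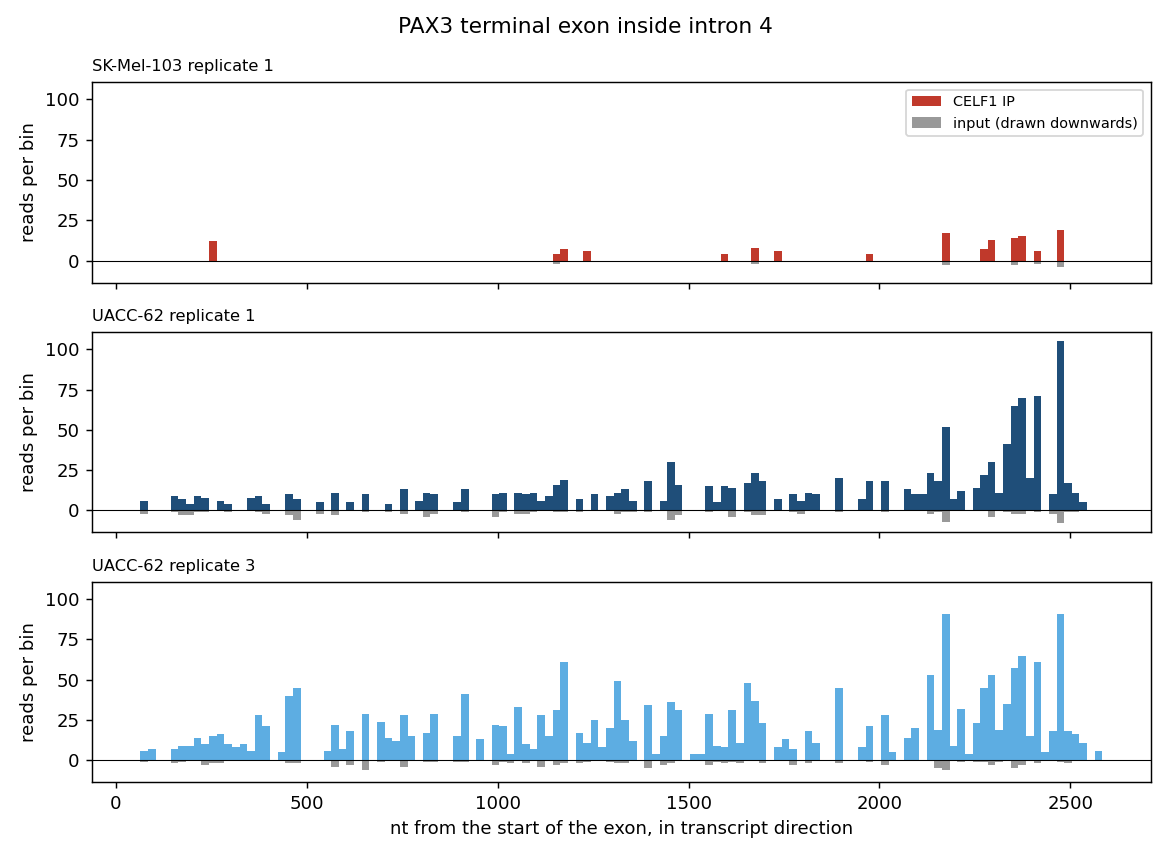
Reads per listed 20-bp bin along the PAX3 exon inside intron 4 (horizontal axis, nt from its start in transcript direction), with IP upwards and input downwards, 1 panel per sample. The highest bins lie toward the 3′ end in all 3 samples, up to 105 IP reads in UACC-62 replicate 1, while input stays at 8 reads or fewer in every bin.

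The highest PAX3 bin, chr2:223127361-223127380, had 19 IP reads in SK-Mel-103 and 105 and 91 in UACC-62, over 4, 8 and 1 input reads. It is the first stretch printed above and holds TGTTTG. The second stretch had 17, 52 and 91 IP reads. Both had the most reads in SK-Mel-103 as well. All 6 PAX3 bins over 30 IP reads in UACC-62 replicate 1 were also over 30 in replicate 3, which had 24. The exon held 4 of the 11-nt GU-rich positions. In contrast, the PAX3 3′ UTR with its 14 positions had 41, 29 and 44 IP reads.

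MLANA showed a step along its 3′ UTR in UACC-62. Annotated transcripts end at different places after the same stop codon, the shortest 238 nt and the longest 1901 nt past it. Before the short end UACC-62 had 164 and 327 IP reads over 427 and 469 input reads, a log2 ratio of -1.32 and -1.23. After it there were 412 and 1151 IP reads over 160 and 191 input reads, a ratio of 1.41 and 1.87. The ratio thus rose by 2.92 ± 0.261 (SD, n = 2) on the log2 scale from the proximal to the distal stretch. The split at the short end was chosen after the profile was seen and has no test.

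The same split could be made in 1585 genes with at least 10 IP and 10 input reads on both sides in both UACC-62 replicates. The ratio was higher after the short end in both replicates in 63.8% of them, with median differences of 0.40 and 0.37. A difference at least as large as that of MLANA in both replicates was found in 8 of these genes (0.505%), MLANA included. MITF, split 383 nt after its stop codon, differed by 0.37 and 0.14. DCT, split 312 nt after its stop codon, differed by -2.09 and -0.62, from 12 and 4 IP reads over 3 and 1 input reads before the short end. The MLANA coding region, with 92 and 234 IP reads over 239 and 262 input reads, had ratios of -1.31 and -0.88, like the proximal 3′ UTR. In SK-Mel-103 both MLANA bins lay in the distal stretch, with 28 IP over 18 input reads.

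**Figure D4:**
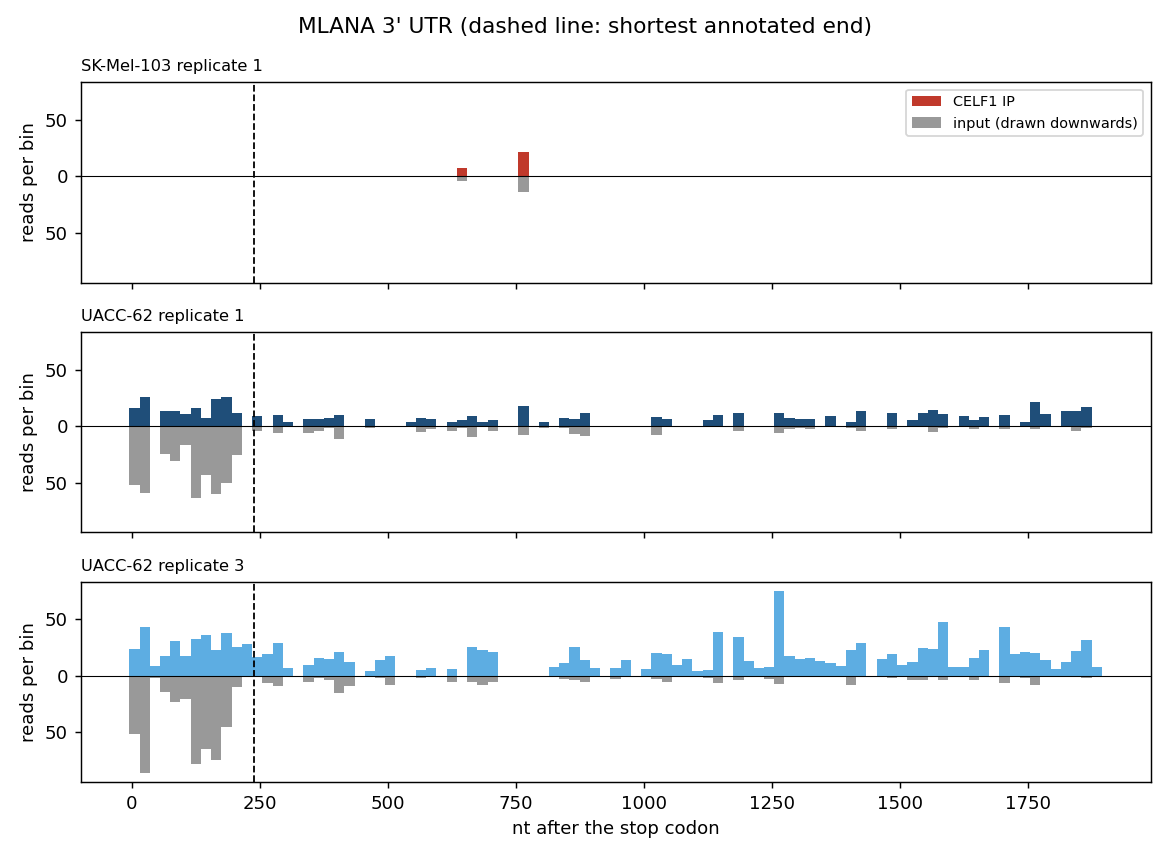
Reads per listed 20-bp bin along the MLANA 3′ UTR (horizontal axis, nt after the stop codon), with IP upwards and input downwards, 1 panel per sample. In UACC-62 input reads lie mostly before the dashed line, the shortest annotated end at 238 nt, while IP reads run on to the far end at 1901 nt. SK-Mel-103 has 2 bins.

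UACC-62 replicates differed in the height of MLANA bins. The highest bin had 26 IP reads in replicate 1 and 75 in replicate 3, and the number of bins over 30 IP reads was 0 and 15. The MLANA bin printed first, chr9:5909961-5909980 in the distal stretch, had 12 and 75 IP reads over 6 and 7 input reads, and the one printed second, in the proximal stretch, had 26 and 43 over 59 and 86.

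For the remaining genes, SOX10 reads lay in the 3′ UTR for 94.2% of IP reads in SK-Mel-103 and 92.3% and 94.6% in UACC-62. Its ratio in the 3′ UTR was -1.0, -1.28 and -1.25. TYR had 72.8% and 65.7% of its UACC-62 IP reads in the coding region, at ratios of -1.10 and -1.49 against -0.55 and -0.75 in its 3′ UTR. The annotated 3′ UTR of TYR covers only 396 of its 2593 exonic nt, and it held 26.7% and 33.0% of the IP reads. SLC45A2 also had most of its IP reads in the coding region, 70.9% and 63.1%. DCT had 90.1% and 80.9% in the 3′ UTR. Of the bins of DCT, only 10 were listed in both UACC-62 replicates, 30.3% of those in replicate 1 and 38.5% of those in replicate 3. For TYR the shared bins were 85.1% and 91.3%, and DCT was the more sparsely listed of the pair.

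The study's own filter kept bins with more than 30 IP reads that were common to the 3 IP samples. None of the 10 genes had such a bin, against 1766 of 20176 protein-coding genes (8.75%). SOX10 came nearest. Its bin chr22:38369061-38369080 had 41 IP reads in SK-Mel-103, and 32 and 30 in UACC-62 replicates 1 and 3, so without replicate 3 the count was 1. Its strongest UACC-62 bin, the SOX10 stretch printed above, had 24, 32 and 31. Without the filter on reads, 3 genes (MITF, SOX10 and PAX3) had a bin listed in all 3 samples, with 9, 53 and 13 bins. In both UACC-62 replicates together, bins over 30 IP reads numbered 6 in PAX3, 2 in MITF, 1 in SOX10 and 1 in TYR.

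Other genes of the pathway were read from lists of known function. Over all genes tested 10.9% were lower and 6.39% were higher in SK-Mel-103, and the counts in each list are to be read against these shares. A gene without a listed bin in SK-Mel-103 entered through UACC-62 alone, which fixed its direction. Of 12 transcription regulators of the lineage, 10 were tested in IP reads, 3 fell, 1 of them without a listed bin in SK-Mel-103, and 1 rose, with a median log2 difference of -0.80 against -0.06 over all genes. SOX5 had 14.3 IP RPM in SK-Mel-103 and 765 and 442 RPM in UACC-62 (log2 difference -5.40, edgeR adjusted p = 7.79e-05). LEF1, the nuclear partner of beta-catenin, fell by 2.20 on the log2 scale (edgeR adjusted p = 0.00796). CREB1, which acts on the MITF promoter downstream of cyclic AMP, differed by 1.09 (edgeR adjusted p = 0.164) and ZEB2 by -0.44 (edgeR adjusted p = 0.596).

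Of 8 receptors and ligands, 4 were tested and 3 fell, none of these 3 with a listed bin in SK-Mel-103. ERBB3, EDNRB, the endothelin receptor of melanoblasts, and MC1R, the melanocortin receptor, had no listed bin in SK-Mel-103. In UACC-62 ERBB3 stood at 159 and 129 IP RPM, EDNRB at 54.1 and 36.6 and MC1R at 10.1 and 2.70. Their edgeR adjusted p were 4.15e-06, 2.80e-05 and 0.0128, and all 3 entered through UACC-62 alone. KITLG, the ligand of KIT, differed by -0.83 (edgeR adjusted p = 0.306).

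Of 8 melanosome channels and transporters, 7 were tested, 2 fell, against 10.9% of all genes, and none rose. SLC24A5, a melanosomal cation exchanger, had no listed bin in SK-Mel-103 and 50.3 and 54.6 IP RPM in UACC-62 (edgeR adjusted p = 1.53e-05, entered through UACC-62 alone). ATP7A, which supplies copper to tyrosinase, fell by 3.66 on the log2 scale (edgeR adjusted p = 0.000526). SLC7A11, the cystine transporter, differed by -1.14 (edgeR adjusted p = 0.191) and MFSD12 by -0.78 (edgeR adjusted p = 0.532).

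All 20 genes of melanosome biogenesis and transport were tested, and 4 fell, against 10.9% of all genes, and none rose, with a median of -0.70. All 4 had listed bins in SK-Mel-103. MYO5A, the motor that carries melanosomes, fell by 2.47 (edgeR adjusted p = 0.00441), CD63 fell by 2.37 (edgeR adjusted p = 0.00721) and LYST fell by 5.82 (edgeR adjusted p = 5.14e-05). BLOC1S6 differed by -0.11 (edgeR adjusted p = 0.905). LYST had 3.53 IP RPM in SK-Mel-103 against 261 and 140, and its IP over input was higher there by 2.05 (limma adjusted p = 0.00659), with input lower by more than 16-fold as in MITF.

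Of 13 other known MITF target genes, 12 were tested, 5 fell and 1 rose, against 10.9% and 6.39% of all genes. Of the 5, 4 had no listed bin in SK-Mel-103 and entered through UACC-62 alone. GPNMB, a melanosomal glycoprotein and 1 of these 4, had 429 and 207 IP RPM in UACC-62 (edgeR adjusted p = 5.00e-06). TBC1D16 fell by 4.15 (edgeR adjusted p = 0.000184). Its IP over input was higher in SK-Mel-103 by 1.53 (limma adjusted p = 0.0305), with input lower by more than 16-fold as in MITF (log2 difference -5.65). HIF1A differed by -1.27 (edgeR adjusted p = 0.0894) and CDK2 by -0.59 (edgeR adjusted p = 0.425). The gene that rose was MET, a growth factor receptor, by 2.35 (edgeR adjusted p = 0.00223), named after its value was seen.

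The label of the cells as melanoma was read against other markers. Of 4 keratinocyte markers only KRT10 had a listed bin, at 8.1 IP RPM in SK-Mel-103 and 6.6 and 7.5 in UACC-62. Of 4 fibroblast markers only LUM had one, at 2.03, 17.3 and 14.6. Of 7 markers of the melanoma state with low MITF, 5 were higher in SK-Mel-103 in IP reads and 1, INHBA, was lower, against 6.39% and 10.9% of all genes, with a median log2 difference of 2.38. Of the 5, NGFR, named after its value was seen, had 873 IP reads in SK-Mel-103 and 0 and 4 in UACC-62. It entered the test through SK-Mel-103 alone, so its direction was fixed by the filter. AXL, a receptor tyrosine kinase, had 435 IP RPM in SK-Mel-103 and 2.31 and 1.62 in UACC-62 (edgeR adjusted p = 2.99e-06). SOX9, which is in the list of regulators as well, had 107 against 0.770 and 2.23 (edgeR adjusted p = 2.26e-05), and ZEB1 was higher by 1.77 (edgeR adjusted p = 0.0161). INHBA had 57.0 against 455 and 296 (edgeR adjusted p = 0.00296). Of the melanocyte markers, SOX10 was listed in 75 bins in SK-Mel-103, PAX3 in 26, MITF in 10 and MLANA in 2, and PMEL, TYR, TYRP1 and DCT had no listed bin there.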

How the data were processed

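RNA bound by CELF1 was sequenced from 3 IPs, each with its input. Per the labels, reads were aligned to GRCh37 (hg19) with TopHat2 2.0.4 and Bowtie 0.12.7, and the authors called peaks per IP sample in 20-bp bins with Piranha and the input as covariate. The deposited lists hold IP read counts, a p-value per bin (all under 0.05) and the input covariate, a scaled ratio. Dividing the covariate by its smallest step gave whole input reads (within 0.05) for 100% of bins, and 0.01 marks no input, a value equal to 171, 388 and 326 reads on the covariate scale. Listed strands were turned, since the library type reads the opposite strand.

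Bins were summed over exons of GENCODE 44 on GRCh37, scaled by TMM, and tested with edgeR 4.0.16 (IP reads, sum of at least 20) and limma 3.58.1 (input, and IP over input with at least 10 reads of each) in R 4.3.3, with 1 read as pseudocount. Scripts were tested on simulated data. At 4-fold changes 99.5% of 200 changed genes were recovered in IP, 99.5% in input and 87.5% in IP over input, and at 2-fold 55.5%, 0.0% and 1.0%. The changed genes were drawn from genes with at least 200 IP and 200 input reads summed over the samples. Their dispersion was fixed and not estimated from these data, so these rates do not give the power for genes with fewer reads or more spread. DESeq2 1.42.0 was an alternative. Named genes were all 10 members and, from each list, the 4 with the highest mean IP reads per 1000000. Members and lists were chosen with earlier results of these data known.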

Additional observations from a re-analysis of the deposited data

Results flagged for a closer look

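IP over input of MITF was higher in SK-Mel-103 than in UACC-62 by 2.66 on the log2 scale and that of PAX3 was lower by a difference of -1.40, and both differences passed the limma test. The PAX3 difference did not pass with division by list totals (-1.11, limma adjusted p = 0.095) and was 0.65 with 3′ UTR bins only, and the part of bin listing in the MITF difference was not tested. For MITF the SK-Mel-103 value rests on 48 IP and 18 input reads, and for PAX3 on 195 and 39.

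Bins on the strand opposite the transcript lie outside the comparisons. PMEL exons held 40 such IP reads in SK-Mel-103 and 36 and 77 in UACC-62, in bins that lie in exons of CDK2 on that strand. MLANA exons held 23, 13 and 10. Of the MLANA ones, some lay at positions listed on the transcript strand too. These counts were not tested.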

How the results depend on the processing

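The members called lower in SK-Mel-103 numbered 6 in IP reads and 5 in input, and 2 members were called in IP over input. With bins listed in all 3 samples only, the counts were 2 in IP and 1 in input, where only MITF, SOX10 and PAX3 had such bins. With bins over 30 IP reads only, or with the listed strand taken as the transcript strand, they were 0 in all 3 comparisons. SOX10 alone had a bin over 30 IP reads in SK-Mel-103, so the fitted folds of the other members there depend on the prior count. Members called in IP over input fell to 1 with division by list totals (PAX3 -1.11, adjusted p = 0.095), 1 with 3′ UTR bins only and 0 with at least 50 IP and 50 input reads in every sample, which leaves MITF and PAX3 out. Signs turned for MLANA IP with the listed strand (0.81), for PAX3 with 3′ UTR bins only (IP 0.027, IP over input 0.65) and for MLANA IP over input, which passed in no setting, there (-0.20) and without UACC-62 replicate 1 (-0.14). DESeq2, edgeR on input reads (6 members in place of 5), the other pseudocount and no filter on low sums gave counts within 1.5 times.

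Division by list totals in place of TMM moved the median log2 difference in IP reads from -0.06 to 0.35, and genes higher in SK-Mel-103 from 36.9% to 54.0% of those called in IP and from 47.9% to 85.3% in IP over input. Genes called over all settings ranged widely. In IP they were 749 higher and 1279 lower with edgeR, 33 and 134 with bins over 30 reads only, 455 and 520 with common bins only, 446 and 867 with 3′ UTR bins only and 0 with the listed strand (187 at an unadjusted p under 0.05). In input they were 485 and 872, 341 and 445 with no filter, 1736 and 2138 with edgeR, and 0 with bins over 30 reads only (1055 at an unadjusted p under 0.05, limma) or the listed strand (173). In IP over input they were 78 and 85, 127 and 179 with a pseudocount of 0.5, 34 and 20 with 3′ UTR bins only, 33 and 18 with common bins, 17 and 9 with bins over 30 reads and 12 and 1 with the listed strand. Members with a peak common to the 3 samples numbered 3 without the read filter and 0 to 1 when either UACC-62 replicate was left out.

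No paired analysis was possible because the cell lines share only replicate number 1. With 1 SK-Mel-103 library and no IP with another antibody, differences between lines and between libraries cannot be told apart, and leaving out a UACC-62 replicate gave values without a test.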
